A study of Mus musculus with 22 samples.

Results

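The 10 genes followed here are ones that adipocytes use, measured in the aortas of ovariectomised female mice: the adipokine genes Adipoq, Lep, Retn and Cfd, the lipid droplet genes Cidec and Plin1, the lipid uptake and transport genes Lpl and Fabp4, and the transcription factor genes Pparg and Cebpa. The 10 genes were taken as listed, and every probe set was used whose only gene symbol in the array annotation is 1 of them. That gave 12 probe sets of 45101 on the array, for 8 of the 10 genes. No probe set carried Plin1 or Cfd as its only symbol, and these 2 genes were not analysed here. Of the 12 probe sets, 11, for 7 genes, passed the filter on low values and were tested.

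Aortic RNA was measured on 22 Affymetrix arrays, 1 array per mouse without pooling, from C57BL/6 females of 2.5 to 4.5 months that had all been ovariectomised. Mice were wild type littermates (WT), estrogen receptor alpha knockouts (ERaKO) or estrogen receptor beta knockouts (ERbKO), and each carried a pellet of 17beta-estradiol (E2) or of placebo for 7 to 8 days. Each WT group held 5 mice and each ERaKO and ERbKO group 3. The labels name no cell type to which the knockouts are restricted.

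Values are log2 signals, for which the processing notes name GCRMA, and errors beside group means are SDs between mice. The median log2 signal of an array lay between 3.26 and 3.50, and arrays of 1 group correlated over all probe sets with r of 0.964 to 0.993. The brightest Esr1 probe set, for the gene deleted in ERaKO, ranged from 3.48 to 5.50 on the 6 ERaKO arrays, from 8.04 to 9.17 on the 10 WT arrays and from 8.35 to 9.01 on the 6 ERbKO arrays. The Esr2 probe set was at 2.72 or less on all 22 arrays and checks nothing. Precision below is limited by how few arrays a group has, and signals of different probe sets are not on 1 scale and are not compared with each other.

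White adipocytes store triglyceride in a single large lipid droplet and secrete hormones, the adipokines, while brown adipocytes burn lipid for heat. PPARgamma and C/EBPalpha drive the programme of white adipocytes together, and their targets include the genes for adiponectin, the fatty acid binding protein FABP4, lipoprotein lipase and droplet proteins. The mouse thoracic aorta is wrapped in perivascular fat that is rich in brown adipocytes, and adipokines released there act on the vessel wall. Estrogen receptor alpha is the receptor best known for the effects of estrogen on fat.

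The aortic label was borne out by smooth muscle genes. Myh11, the smooth muscle myosin heavy chain, was between 12.19 and 13.77 on all 22 arrays, and Acta2, smooth muscle actin, between 13.95 and 14.78. The adipocyte signal was not that of white fat alone. Ucp1, the uncoupling protein that defines brown adipocytes, was between 11.35 and 14.07 on all 22 arrays, and Cidea, a droplet protein abundant in brown fat, between 10.87 and 13.89. Lep, the leptin gene that marks white adipocytes, was at 2.13 to 2.30 on all arrays. Because of these values the genes are called adipocyte genes here, and the 7 tested genes are ones that white and brown adipocytes both use, except Retn, whose product resistin is known in mice as a hormone of white fat.

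Most of the adipocyte genes had lower mean signals in aortas with E2 than with placebo, but none of the 7 tested genes passed the test in any of the 3 comparisons of E2 with placebo when all mice were treated as unpaired. The value was below 0 for 7 of 7 genes in WT, 7 of 7 in ERaKO and 6 of 7 in ERbKO, against 47.8%, 48.3% and 55.7% of the 20410 tested probe sets. The median log2 change over the 7 genes was -0.60 in WT, -1.27 in ERaKO and -0.23 in ERbKO, where the median over all tested probe sets was 0.013, 0.013 and -0.024. A call was an adjusted p under 0.05 by limma with Benjamini-Hochberg adjustment over all 20410 tested probe sets, two-sided. Calls of lower signal made up 0.0392% of all tested probe sets in WT, 0% in ERaKO and 0.0049% in ERbKO, so no gene of any kind was called lower in ERaKO without a pairing. In whole aortas, fewer adipocytes in the tissue taken, for whatever reason, and less of an mRNA per adipocyte cannot be told apart.

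E2 and placebo mice of 1 genotype that carry the same replicate number deviated together across the genome, so the fit was also made with the number as a block within genotype. With that replicate block, Cidec was called lower in WT, and Adipoq and Cebpa were called lower in ERaKO. None of the 7 was called in ERbKO. There the direction in the unblocked fit also rested on single mice for all genes but Retn, which had -2.59 to -1.003 when single arrays were left out. Without placebo replicate 1 the unblocked changes turned to 0.13 for Adipoq, 0.03 for Cidec, 0.02 for Fabp4 and 0.44 for Pparg. Without E2 replicate 2 they turned to 0.17 for Adipoq, 0.03 for Fabp4 and 0.32 for Pparg. Blocked fits that each left out 1 whole pair kept several ERbKO changes below 0. Their ranges were -0.44 to -0.18 for Adipoq, -1.95 to -1.33 for Retn and -0.57 to -0.33 for Cidec. Fabp4 had -0.14 to -0.096 and Pparg -0.38 to -0.032. In the same fits Cebpa had -0.34 to 0.068 and Lpl -0.023 to 0.39. The block called 0.725% of all tested probe sets lower in WT, 1.57% in ERaKO and 0.0196% in ERbKO. Averaged with equal weight over the 3 genotypes, a comparison added after the data had been seen, 0 of 7 genes were called without the block (0.049% of all tested probe sets were called lower) and 4 of 7 with it, Adipoq, Retn, Cidec and Fabp4, against 4.85% of all tested probe sets.

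**Figure D1:**
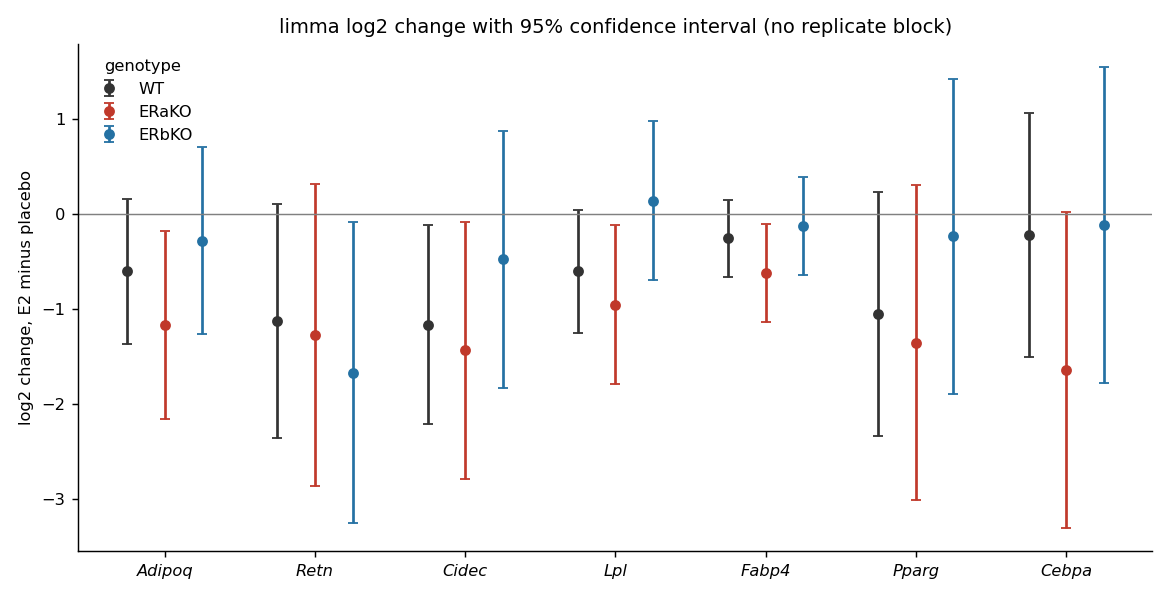
Log2 change of each of the 7 tested genes with E2 against placebo (y axis, E2 minus placebo) in WT, ERaKO and ERbKO, from the limma fit without the replicate block; points are estimates and bars their 95% confidence intervals. All WT and ERaKO estimates and 6 of 7 ERbKO estimates lie below 0, and most intervals cross it.

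Adiponectin, the product of Adipoq, is the most abundant adipokine and raises insulin sensitivity. Adipoq lies on chromosome 16 at positions 23146536 to 23157968 (mouse build GRCm38.p6, RefSeq). In WT, its log2 signal in replicates 1 to 5 was 11.68, 12.50, 11.72, 13.08 and 12.24 with placebo and 11.19, 12.08, 10.81, 12.13 and 11.99 with E2. In ERaKO it was 12.69, 12.78 and 12.70 with placebo and 11.70, 10.91 and 12.06 with E2. ERbKO aortas had 12.76, 11.14 and 11.90 with placebo and 12.27, 10.75 and 11.94 with E2. The groups overlapped in WT and ERbKO, and in ERaKO every E2 mouse was below every placebo mouse.

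The change of Adipoq was -0.60 ± 0.36 (SE) on the log2 scale in WT (adjusted p = 0.71 by limma), -1.17 ± 0.47 in ERaKO (0.66) and -0.28 ± 0.47 in ERbKO (1.0). The WT value was -0.39 without placebo replicate 4 or without E2 replicate 3. Under the replicate block Adipoq in ERaKO reached an adjusted p of 0.036, which stayed under 0.05 in 2 of 11 fits that each left out 1 pair of mice, those without WT pair 4 (0.017) or WT pair 5 (0.026). Averaged over genotypes, Adipoq had -0.68 ± 0.25 (adjusted p = 0.29 unpaired and 0.0096 under the replicate block), and all 11 fits that left out a pair kept this blocked call, with adjusted p of 0.0073 to 0.040. Adipoq was lower in the E2 mouse in 10 of 11 same-number pairs.

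Resistin, encoded by Retn on chromosome 8 at positions 3655770 to 3659818, opposes insulin action in mice. In WT, Retn was 7.18, 8.26, 8.04, 7.47 and 7.87 with placebo and 6.63, 7.90, 4.39, 7.502 and 6.77 with E2. ERaKO aortas had 8.30, 7.73 and 7.66 with placebo and 6.54, 6.73 and 6.60 with E2. The ERbKO values were 9.18, 7.24 and 7.26 with placebo and 8.07, 4.90 and 5.72 with E2. The 3 ERaKO E2 mice lay close together and below all placebo mice, while WT E2 replicate 3 stood far below its group. In ERbKO, E2 replicates 2 and 3 were below all placebo mice and E2 replicate 1 was not.

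The change of Retn was -1.13 ± 0.59 in WT (adjusted p = 0.65), -1.27 ± 0.76 in ERaKO (0.80) and -1.67 ± 0.76 in ERbKO (1.0, unadjusted p = 0.041). Retn was the gene of the 7 with the lowest value in ERbKO, and the only 1 of them at an unadjusted p under 0.05 there, where 1.22% of all tested probe sets were lower at that threshold. Averaged over genotypes it had -1.36 ± 0.41, a linear E2 to placebo ratio of 0.391 (adjusted p = 0.19 unpaired and 0.020 under the replicate block). That blocked call held in 8 of 11 fits without 1 pair, with adjusted p of 0.0058 to 0.075. The WT change was -0.56 without E2 replicate 3 and -0.49 without that mouse and its placebo partner. The ERbKO change was -1.03 without placebo replicate 1, -2.59 without E2 replicate 1 and -1.003 without E2 replicate 2.

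Lep was below the filter on every array. In WT it was 2.16, 2.17, 2.19, 2.14 and 2.16 with placebo and 2.29, 2.17, 2.21, 2.13 and 2.26 with E2. The 12 knockout arrays had values of 2.13 to 2.30. These values lie under the log2 signal of 4 required on at least 3 arrays, so Lep was not tested and no change is given.

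**Figure D2:**
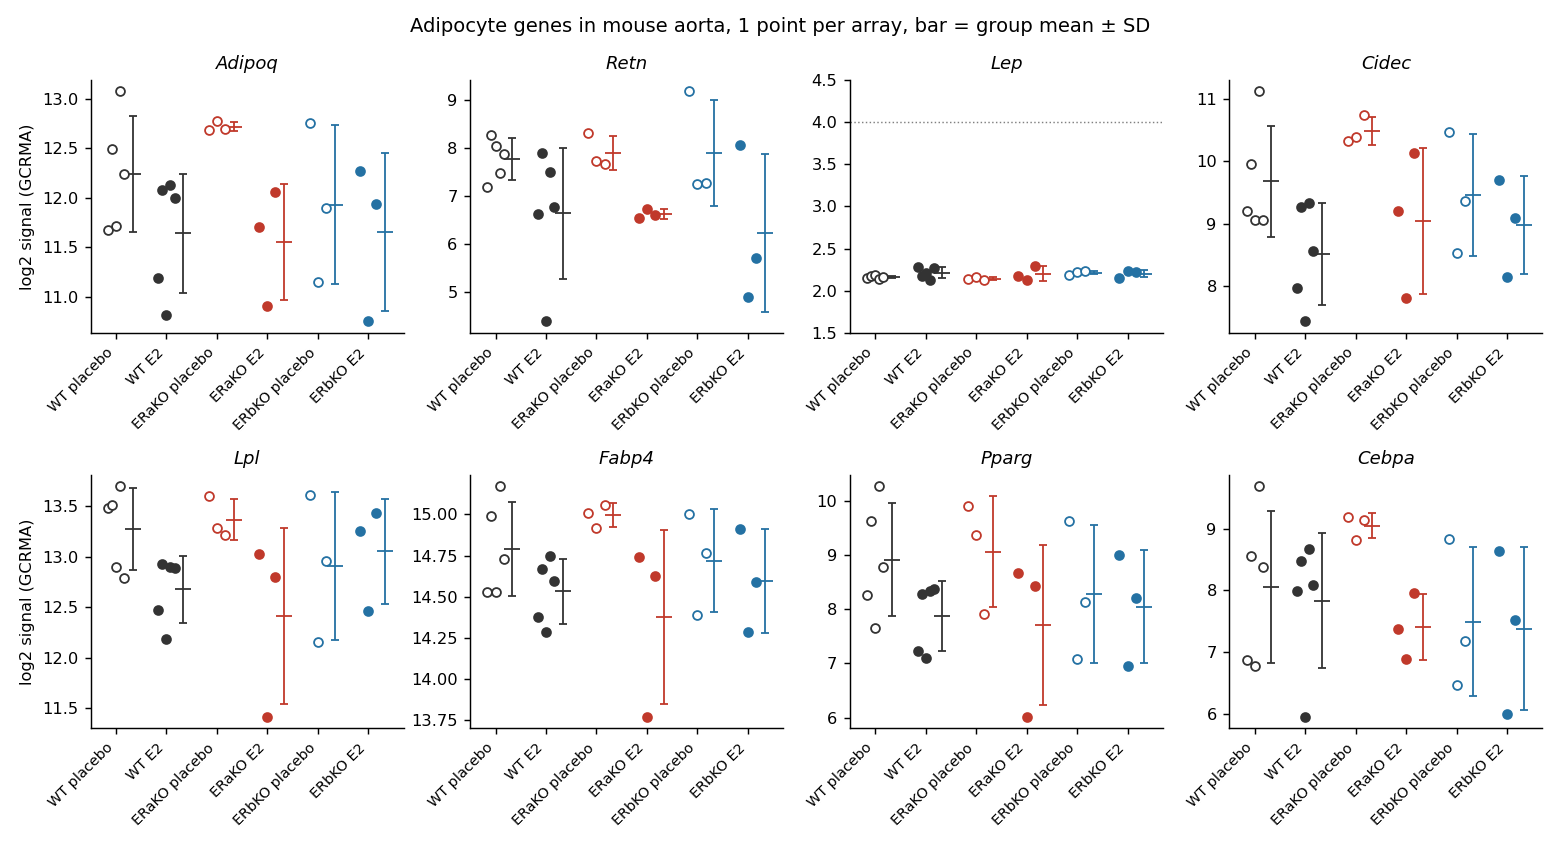
Log2 signal (y axis) of the 8 measured genes in the 6 groups, 1 point per mouse, with the group mean and SD as a bar (n = 5 in WT groups, 3 in knockout groups); open points are placebo, filled points E2, and the dotted line in the Lep panel is the filter at 4. Each panel shows the brightest probe set of its gene and has its own y axis. Lep stays near 2.2 in all groups, and the ERaKO placebo mean of the probe set shown is the highest of the 6 for all 7 tested genes.

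CIDEC, also called FSP27, fuses lipid droplets into larger ones. Its gene lies on chromosome 6 at positions 113424634 to 113435760. In WT, Cidec was 9.20, 9.95, 9.06, 11.12 and 9.05 with placebo and 7.97, 9.27, 7.43, 9.32 and 8.57 with E2. The ERaKO values were 10.33, 10.38 and 10.74 with placebo and 9.20, 7.81 and 10.13 with E2. In ERbKO it was 10.47, 8.53 and 9.36 with placebo and 9.70, 8.15 and 9.09 with E2. WT placebo replicate 4 stood above the other WT mice, 3 of 5 WT E2 mice were below all WT placebo mice, and the ERaKO groups did not overlap.

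The change of Cidec was -1.16 ± 0.50 in WT, a linear ratio of 0.446 (adjusted p = 0.58 unpaired and 0.04995 under the replicate block). That blocked call rests on a value at the threshold: it held in 3 of 11 fits without 1 pair, those without WT pair 5 (adjusted p = 0.036), ERaKO pair 2 (0.022) or ERaKO pair 3 (0.040), and over the 11 fits the adjusted p was 0.022 to 0.145. In ERaKO the change was -1.43 ± 0.65 (0.70, and 0.057 with the block) and in ERbKO -0.48 ± 0.65 (1.0). The ERaKO value was -0.82 without E2 replicate 2. Averaged over genotypes Cidec had -1.02 ± 0.35 (adjusted p = 0.25 unpaired and 0.0093 under the replicate block), which held in all 11 fits without 1 pair. Cidec was lower in the E2 mouse in 11 of 11 same-number pairs.

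Lipoprotein lipase, encoded by Lpl on chromosome 8 at positions 68880555 to 68906932, frees fatty acids from circulating triglyceride for uptake. In WT, the brighter of its 2 probe sets was 13.49, 13.52, 12.90, 13.70 and 12.79 with placebo and 12.48, 12.93, 12.18, 12.90 and 12.89 with E2. In ERaKO it was 13.60, 13.28 and 13.22 with placebo and 13.03, 11.42 and 12.80 with E2. ERbKO aortas had 13.61, 12.16 and 12.96 with placebo and 13.26, 12.46 and 13.44 with E2. The ERaKO groups did not overlap, and ERbKO was the genotype in which the E2 mean was above the placebo mean.

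The change of Lpl was -0.60 ± 0.31 in WT (adjusted p = 0.65), -0.95 ± 0.40 in ERaKO (0.67) and 0.14 ± 0.40 in ERbKO (1.0). The ERaKO value was -0.46 without E2 replicate 2. The ERbKO value turned to -0.23 without placebo replicate 2 and to -0.05 without E2 replicate 3. The second Lpl probe set had -1.11, -1.34 and 0.13 in the 3 genotypes, in the same directions. No Lpl probe set was called in any comparison, with or without the block within genotype.

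FABP4 carries fatty acids inside adipocytes, and also inside endothelial cells and macrophages. Fabp4 lies on chromosome 3 at positions 10204342 to 10208616 and has 4 probe sets. In WT, the brightest was 14.53, 14.99, 14.53, 15.17 and 14.73 with placebo and 14.37, 14.67, 14.28, 14.75 and 14.59 with E2. ERaKO aortas had 15.01, 14.92 and 15.06 with placebo and 14.74, 13.77 and 14.62 with E2. The ERbKO values were 15.004, 14.39 and 14.77 with placebo and 14.91, 14.28 and 14.59 with E2. This probe set is near the top of the scale, whose highest value on any array was 15.35. The ERaKO groups did not overlap, and the other groups did.

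The change of Fabp4 was -0.26 ± 0.19 in WT (adjusted p = 0.78), -0.62 ± 0.25 in ERaKO (0.66) and -0.12 ± 0.25 in ERbKO (1.0). The ERaKO value was -0.31 without E2 replicate 2, and the WT value -0.16 without placebo replicate 4. Averaged over genotypes it had -0.33 ± 0.13 (adjusted p = 0.33 unpaired and 0.048 under the replicate block), and that blocked call held in 2 of 11 fits without 1 pair, those without WT pair 5 (0.046) or ERaKO pair 1 (0.047). The third probe set in brightness, with signals of 5.91 to 9.68, had values further from 0, at -0.84 in WT, -1.93 in ERaKO and -0.43 in ERbKO, and its blocked adjusted p averaged over genotypes was 0.022. All 4 probe sets were below 0 in all 3 genotypes. The brightest probe set was lower in the E2 mouse in 11 of 11 same-number pairs.

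PPARgamma, encoded by Pparg on chromosome 6 at positions 115360879 to 115490404, is the nuclear receptor that adipocytes need in order to form and to be kept. In WT, Pparg was 8.26, 9.63, 7.66, 10.27 and 8.78 with placebo and 7.23, 8.29, 7.10, 8.34 and 8.38 with E2. The ERaKO values were 9.90, 9.37 and 7.92 with placebo and 8.68, 6.02 and 8.44 with E2. In ERbKO it was 9.63, 7.09 and 8.13 with placebo and 9.001, 6.95 and 8.20 with E2. Pparg was the tested gene whose ERaKO groups overlapped, through placebo replicate 3.

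The change of Pparg was -1.05 ± 0.61 in WT (adjusted p = 0.70), -1.35 ± 0.79 in ERaKO (0.79) and -0.23 ± 0.79 in ERbKO (1.0). In ERaKO, replicate 2 carried most of the difference: the pair differences were -3.35 in pair 2, -1.22 in pair 1 and 0.52 in pair 3, and the change was -0.51 without E2 replicate 2 and -0.35 without pair 2. Pparg was not called in any comparison of E2 with placebo, with or without the replicate block.

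C/EBPalpha, encoded by Cebpa on chromosome 7 at positions 35119293 to 35121928, is the partner of PPARgamma in late adipocyte differentiation. In WT, Cebpa was 6.87, 8.57, 6.77, 9.69 and 8.37 with placebo and 7.99, 8.47, 5.95, 8.67 and 8.08 with E2. In ERaKO it was 9.19, 8.82 and 9.14 with placebo and 7.38, 6.89 and 7.96 with E2. ERbKO aortas had 8.84, 6.47 and 7.17 with placebo and 8.63, 6.00 and 7.51 with E2. WT and ERbKO mice of both treatments overlapped over a wide range, and the ERaKO groups were tight and apart, with 9.05 ± 0.20 (SD, n = 3) against 7.41 ± 0.54 (SD, n = 3).

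The change of Cebpa was -1.64 ± 0.79 in ERaKO, a linear ratio of 0.321 (adjusted p = 0.73 unpaired and 0.041 under the replicate block). The blocked call held in 3 of 11 fits without 1 pair, those without WT pair 1 (0.034), WT pair 4 (0.017) or WT pair 5 (0.036). In WT the change was -0.22 ± 0.62 (0.95), and it turned to 0.19 without placebo replicate 4 and to 0.25 without E2 replicate 3. The ERbKO change was -0.11 ± 0.79 (1.0), and it turned to 0.56 without placebo replicate 1 and to 0.58 without E2 replicate 2.

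The sequences just before the start sites of 3 of these genes are shown as a description. Any part of these sequences or their motifs in the signals measured here was not tested. They are the 250 bases before the start, 5′ to 3′, from RefSeq (GRCm38.p6). Capitals mark the motifs found, a CCAAT box, a TATA box spelled TATAAA, or the C/EBP palindrome spelled TTGCGCAA.
Adipoq, chr16:23146286-23146535, plus strand: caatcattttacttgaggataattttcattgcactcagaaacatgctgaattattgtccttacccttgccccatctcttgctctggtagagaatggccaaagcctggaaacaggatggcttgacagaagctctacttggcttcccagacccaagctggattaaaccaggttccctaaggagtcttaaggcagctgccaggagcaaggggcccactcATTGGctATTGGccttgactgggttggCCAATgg
Lep, chr6:29059971-29060220, plus strand: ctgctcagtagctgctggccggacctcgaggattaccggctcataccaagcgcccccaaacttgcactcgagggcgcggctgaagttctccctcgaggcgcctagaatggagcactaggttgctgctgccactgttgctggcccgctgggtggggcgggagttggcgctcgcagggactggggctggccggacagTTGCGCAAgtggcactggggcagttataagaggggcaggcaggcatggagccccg
Cebpa, chr7:35119043-35119292, plus strand: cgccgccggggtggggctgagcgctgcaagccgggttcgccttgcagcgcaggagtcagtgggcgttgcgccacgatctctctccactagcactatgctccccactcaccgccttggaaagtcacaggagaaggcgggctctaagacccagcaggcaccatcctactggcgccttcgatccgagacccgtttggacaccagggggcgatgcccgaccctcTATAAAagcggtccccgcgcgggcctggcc
Promoters of 8 of the 10 genes were in the RefSeq table, with 11 start sites in all, and those of Lpl and Fabp4 were not used here. Each was searched from 250 bases before to 50 after the start, on both strands, for those 3 motifs, for the PPAR response element (AGGTCA repeated in the same direction with 1 base between) and for the estrogen response element (GGTCA and its inverted repeat with 3 bases between), and no 2 of the matches in the 3 printed sequences overlap. Adipoq held 3 CCAAT boxes, the first 2 printed as ATTGG because they lie on the other strand, beginning at -34, -27 and -7 from the start, and 37.4% of all 32851 promoters held at least 1. Lep held TTGCGCAA at -55, as 0.183% of all promoters did. Cebpa held TATAAA at -30, as 13.6% did. Of the 3 Pparg starts, 1 held TATAAA and CCAAT, 1 held 2 CCAAT boxes and 1 held none of these motifs. Those of Cidec, Retn, Plin1 and Cfd held none of the 5 motifs, and none of the 8 genes searched held the PPAR or the estrogen response element as written, which 0.0396% and 0.070% of all promoters did.

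With each gene counted by its brightest probe set, all 3 E2 mice in ERaKO were below all 3 placebo mice for 6 of 7 genes, all but Pparg. Groups that did not overlap in this direction made up 9.3% of all tested probe sets in ERaKO. The same count was 0 of 7 in WT, with larger groups (0.333%), and 0 of 7 in ERbKO (5.16%). At an unadjusted p under 0.05, 4 genes were lower in ERaKO (Adipoq, Cidec, Lpl and Fabp4; 5.21% of all tested probe sets), 1 in WT (Cidec; 3.42%) and 1 in ERbKO (Retn), where these shares are of probe sets lower at that threshold.

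No difference between genotypes in the response to E2 was detectable for these genes. None of the 7 genes was called in the test of ERaKO minus WT responses (0.0686% of all tested probe sets were called), of ERbKO minus WT responses (0%) or of ERbKO minus ERaKO responses (0.0441%), and the smallest unadjusted p among them was 0.067. The intervals are wide. Cebpa had -1.42 for ERaKO minus WT, with a 95% confidence interval of -3.52 to 0.68 (adjusted p = 1.0 by limma), and 1.53 for ERbKO minus ERaKO, with -0.82 to 3.88. Pparg had 0.82 for ERbKO minus WT, with -1.28 to 2.92. A p that misses the threshold does not show that the responses were alike.

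Knockout and WT aortas under the same pellet were also compared, and 0 of 7 genes were called in any of the 4 comparisons. The percentages of all tested probe sets called were 0.0049% for ERaKO against WT with placebo, 0.24% with E2, 0.0049% for ERbKO against WT with placebo and 0.0049% with E2. With placebo, all 7 genes had values above 0 in ERaKO, from 0.09 for Lpl to 0.996 for Cebpa, with a median of 0.21. Only 30.4% of all tested probe sets were below 0 in this comparison, and the median over all tested probe sets was 0.12. Under E2 the ERaKO median was -0.16, with Cidec at 0.54. In ERbKO the medians were -0.31 with placebo, with Pparg at -0.64, and 0.06 with E2, with Cidec at 0.47. By the brightest probe set of each gene, ERaKO placebo had the highest group mean for 7 of 7 genes, and ERaKO E2 the lowest for Adipoq, Lpl, Fabp4 and Pparg. The second Fabp4 probe set in brightness differed. Its ERaKO placebo mean of 14.42 was below those of WT placebo (14.62), ERbKO placebo (14.63) and ERbKO E2 (14.52). All 35 gaps between neighbours in the order of the group means were smaller than the larger of the 2 SDs.

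**Figure D3:**
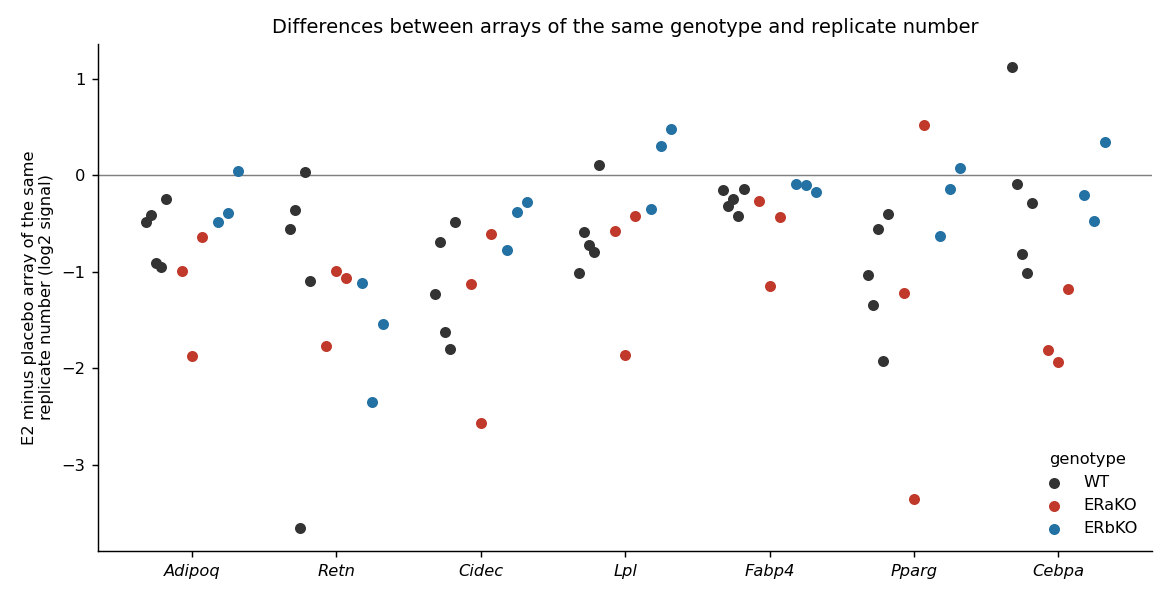
Difference of the E2 mouse from the placebo mouse of the same genotype and replicate number (y axis, log2 signal), for 7 genes, 1 point per pair (5 WT, 3 ERaKO and 3 ERbKO pairs). All 11 points are below 0 for Cidec and Fabp4, 10 for Adipoq and Retn, 9 for Pparg and Cebpa, and 8 for Lpl.

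Same-number pairs were mostly lower with E2. Over the 7 genes, 32 of 35 differences were below 0 in WT, 20 of 21 in ERaKO and 16 of 21 in ERbKO. The mean over the 7 genes was lower in the E2 mouse in 11 of 11 pairs, by amounts from -0.15 (ERbKO pair 3) to -1.96 (ERaKO pair 2). The WT exceptions were Cebpa in pair 1 (1.12 higher), Retn in pair 4 (0.03) and Lpl in pair 5 (0.10), and the ERaKO exception was Pparg in pair 3 (0.52). In ERbKO, Lpl was higher in pair 2 (0.31), and in pair 3 Adipoq (0.04), Lpl (0.48), Pparg (0.08) and Cebpa (0.34) were higher. The 7 genes share the same mice, so these counts are not independent observations.

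Mice of 1 group differed widely, and the same mice were high or low for most of the adipocyte genes. WT placebo replicate 4 was the highest of its group for 6 of 7 genes, and WT E2 replicate 3 the lowest of its group for 7 of 7. ERaKO E2 replicate 2 was the lowest for 6 of 7. ERbKO replicate 1 was the highest for 7 of 7 genes with placebo and 6 of 7 with E2, and ERbKO replicate 2 the lowest for 7 of 7 under both pellets. The mean over the 7 genes was 9.57 to 11.50 over the 11 placebo mice and 8.88 to 10.83 over the 11 E2 mice, which overlap widely.

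**Figure D4:**
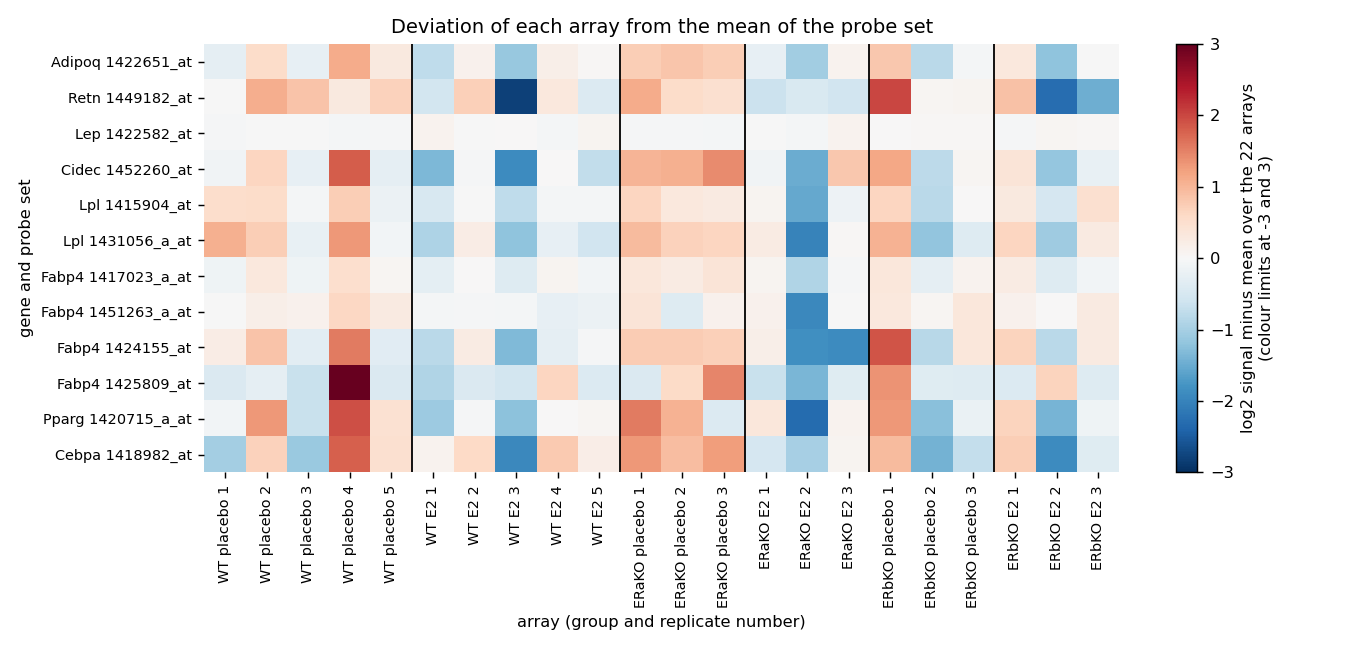
Deviation of the log2 signal of each of the 12 probe sets (rows) from its mean over the 22 arrays, for each array (columns, by group and replicate number); red is above and blue below the mean, with colour limits at -3 and 3. WT placebo replicate 4 and ERbKO placebo replicate 1 are red and WT E2 replicate 3, ERaKO E2 replicate 2 and ERbKO E2 replicate 2 blue for most genes, while the Lep row has no colour.

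Over the 22 arrays, the log2 signals of the 7 genes were correlated in all 21 gene pairs. Pearson r was 0.51 to 0.93, with a median of 0.81, and Spearman rho was 0.54 to 0.94. The largest adjusted permutation p was 0.015 for r and 0.010 for rho, with 100000 resamples and Benjamini-Hochberg adjustment over the 21 pairs. The permutation treats the 22 arrays as exchangeable and takes account neither of the 6 groups nor of the same-number pairs, so these p-values may be too small. Leaving out the 2 arrays farthest from the median of the first gene gave r of 0.39 to 0.92, and deviations from the group means gave r of 0.44 to 0.93, so the relation was also there within groups. Adipoq and Cidec were the closest pair (r = 0.93). Retn was the loosest gene, with r of 0.51 to 0.73 to the other 6.

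Outside the 10 genes, the 3 genes most like each tested gene were taken by Pearson r over the 22 arrays. For Adipoq they were Ucp1 (r = 0.960), Nrg4 (0.960), a hormone of brown fat, and Hibch (0.959), a mitochondrial enzyme of valine breakdown. For Cidec they were Acadvl (0.967), the very long chain acyl-CoA dehydrogenase, Sh2b2 (0.954), an adaptor of insulin signalling, and Cyc1 (0.953), cytochrome c1. For Lpl they were Atp5o (0.932), a subunit of ATP synthase, the fatty acid receptor gene Cd36 (0.924) and Cox8b (0.914), a cytochrome oxidase subunit of brown fat and muscle. For Fabp4 they were Cox8b (0.948), Ucp1 (0.944) and Ifi27 (0.943).

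For Pparg the most alike were Pde3b (0.960), the phosphodiesterase through which insulin restrains lipolysis, Hibch (0.946) and Adhfe1 (0.928). For Cebpa they were Retsat (0.933), a retinol saturase known as a PPARgamma target, Adipor2 (0.929), a receptor for adiponectin, and Dbi (0.927), the acyl-CoA binding protein. For Retn, with lower r, they were Mtln (0.862), Pcx (0.830), the pyruvate carboxylase of adipocytes and liver, and Ptger3 (0.822), a prostaglandin E receptor. These are the largest of 10253 correlations each, are given as a description of 22 arrays from 6 groups, and say nothing of shared control.

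Brown adipocyte markers moved with the adipocyte genes. Of 16 listed brown markers, 15 had a probe set, 13 were over a log2 signal of 4 on all 22 arrays, and Zic1 and Lhx8 were over it on none. The summed signal of the 15, on the linear scale, was 22879 to 65480 in WT placebo and 12089 to 25256 in WT E2. It was 38637 to 46655 in ERaKO placebo and 9755 to 25851 in ERaKO E2, and 15602 to 39186 in ERbKO placebo and 11307 to 29573 in ERbKO E2. Their mean log2 signal was lower in the E2 mouse in 10 of 11 same-number pairs, and over arrays it followed the mean of the 7 adipocyte genes with r of 0.94 and rho of 0.88 (r of 0.93 for deviations from group means; 22 arrays, a description without a test).

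The median change of the 13 tested brown markers was -1.04 in WT, -1.34 in ERaKO and -0.42 in ERbKO, with 0 called without the block. With the block, 3 were called lower in WT and 3 in ERaKO, where 0.725% and 1.57% of all tested probe sets were called lower. Cox7a1, a cytochrome oxidase subunit, had -1.16 in WT (adjusted p = 0.0069 with the block) and -1.55 in ERaKO (0.022). Cidea had -1.11 (0.028) and -1.32 (0.042), Ucp1 -0.68 and -1.14, and Cox8b -0.82 and -1.43. Ucp1 had -0.13 and Cox8b -0.24 in ERbKO. Each turned above 0 there without placebo replicate 1 (0.20 and 0.08) or without E2 replicate 2 (0.28 and 0.10). The part of the brown adipocyte markers in the changes of the 7 genes was not tested.

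**Figure D5:**
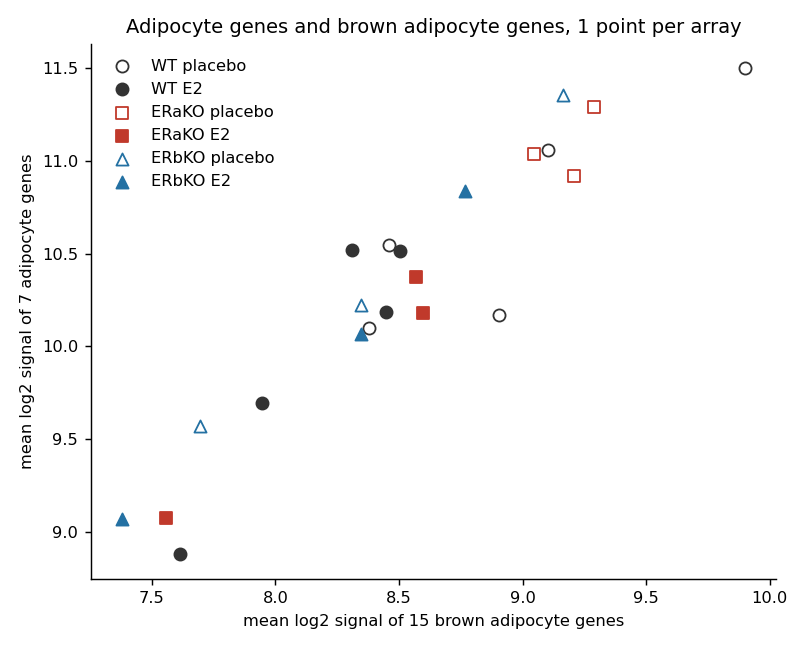
Mean log2 signal of the 7 tested adipocyte genes (y axis) against that of 15 brown adipocyte genes (x axis), 1 point per array, with colour and shape for genotype and open points for placebo. The 2 means rise together (r of 0.94), with WT placebo replicate 4 at its top and WT E2 replicate 3, ERaKO E2 replicate 2 and ERbKO E2 replicate 2 at its foot.

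The mean marker signals of the other cell types followed the adipocyte genes less closely. Over the 22 arrays, r with the mean of the 7 genes was -0.38 for 8 smooth muscle genes, 0.26 for 8 endothelial genes, -0.43 for 9 fibroblast and preadipocyte genes, -0.12 for 8 macrophage genes and 0.07 for 8 skeletal muscle genes. Over the signal set by the filter on no array were 6 of the skeletal muscle, 3 of the macrophage and 1 of the fibroblast and preadipocyte genes. The skeletal muscle r therefore rests mostly, and the macrophage r partly, on low signals, and cannot show how those cells varied. Median changes were taken over the tested genes only. In WT they were 0.24 for 8 smooth muscle, 0.24 for 8 endothelial and 0.15 for 8 fibroblast and preadipocyte genes. Macrophages had 0.17 (5 genes) and skeletal muscle -0.84 (3 genes). In ERaKO the medians were 0.29, -0.45, 0.12, -0.005 and -0.50, and in ERbKO -0.07, -0.01, 0.02, 0.51 and 0.12, in the same order. The endothelial markers were thus below 0 in ERaKO beside the adipocyte genes, for 7 of 8 genes, as were 48.3% of all tested probe sets. Their mean was lower in the E2 mouse in 3 of 3 ERaKO pairs, 1 of 5 WT pairs and 1 of 3 ERbKO pairs. Their summed linear signal was 2174 to 2347 in ERaKO placebo and 1559 to 2299 in ERaKO E2, and their part in the changes of the 7 genes was not tested. Of the 8 endothelial genes, Vwf, the von Willebrand factor, was called higher in WT (1.93 ± 0.17, adjusted p = 3.6e-06) and in ERbKO (1.33 ± 0.23, adjusted p = 0.017), and had -0.27 in ERaKO. The ERbKO call of Vwf was lost in each of the 6 fits without 1 ERbKO array, with adjusted p of 0.053 to 0.122. Pecam1, the general endothelial marker, had 0.77 in WT, Myh11 had 0.26, and the collagen gene Col1a1 had -1.25 ± 0.28 (adjusted p = 0.058 unpaired and 0.026 under the replicate block). No gene of the smooth muscle, fibroblast, macrophage or skeletal muscle lists was called in these 3 comparisons without the block. Dlk1, the preadipocyte gene, was at 2.77 or less on all arrays.

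Among lipoprotein lipase partners and fatty acid uptake genes, Vldlr, the receptor that binds triglyceride-rich particles beside lipoprotein lipase, moved against the adipocyte genes. The log2 signal of its brightest probe set in WT was 11.02 ± 0.24 with placebo against 12.23 ± 0.44 with E2 (SD, n = 5 each). It was 11.24 ± 0.33 and 12.62 ± 0.21 (SD, n = 3 each) in ERbKO and 10.97 ± 0.07 and 10.65 ± 0.09 (SD, n = 3 each) in ERaKO. Vldlr rose by 1.21 ± 0.19 in WT (adjusted p = 0.0020) and by 1.38 ± 0.24 in ERbKO (0.021), where 0.348% and 0.0931% of all tested probe sets were called higher, and had -0.31 ± 0.24 in ERaKO (0.88). The ERbKO call was lost in 5 of the 6 fits without 1 ERbKO array, with adjusted p up to 0.15. The ERaKO response minus the WT response was -1.52 ± 0.30 (adjusted p = 0.072 unpaired and 0.039 under the replicate block). Vldlr has 6 probe sets, all higher with E2 in WT and ERbKO in their group means, and on both sides of 0 in ERaKO.

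Of the 12 tested genes of that list, Vldlr was the only 1 called without the block in the 3 comparisons of E2 with placebo, and 9 in WT, 10 in ERaKO and 7 in ERbKO were below 0, with medians of -0.24, -0.94 and -0.04. Values below 0 made up 47.8%, 48.3% and 55.7% of all tested probe sets in WT, ERaKO and ERbKO. With the block, 2 genes were called lower and 1 higher in WT, 3 lower in ERaKO and 1 higher in ERbKO. Over all tested probe sets the block called 0.725% lower and 0.975% higher in WT, and 1.57% lower in ERaKO. Gpihbp1, the endothelial protein that holds lipoprotein lipase on capillaries, had -1.29 ± 0.38 in WT (adjusted p = 0.27 unpaired and 0.027 under the replicate block), -1.81 ± 0.50 in ERaKO (0.65, and 0.029) and -0.35 ± 0.50 in ERbKO. Fabp3, the fatty acid binding protein of muscle and brown fat, had -1.50 ± 0.46 in WT (0.29, and 0.026 with the block) and -1.35 ± 0.59 in ERaKO (0.69, and 0.087).

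Genes of fatty acid and triglyceride synthesis were lower in value with E2 in nearly all cases: 18 of 20 in WT, 20 of 20 in ERaKO and 16 of 20 in ERbKO, with medians of -0.30, -1.13 and -0.59, and 0 were called without the block. With it, 0, 3 and 0 were called lower, against 0.725%, 1.57% and 0.0196% of all tested probe sets. The shares of all tested probe sets below 0 were 47.8%, 48.3% and 55.7%. Dgat2, which makes the last step of triglyceride synthesis, had -1.09 in WT, -1.27 in ERaKO and -1.07 in ERbKO. Its counterpart Dgat1 had -1.29 in ERaKO, and Pck1, which makes the glycerol backbone in adipocytes, -1.22 there (0.031 with the block).

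Of 15 tested lipid droplet and lipolysis genes, 13 in WT, 13 in ERaKO and 12 in ERbKO were below 0, with medians of -0.45, -0.97 and -0.12. Over all tested probe sets, 47.8%, 48.3% and 55.7% were below 0. None of the 15 was called without the block, and 1, 3 and 0 were called lower with it, against 0.725%, 1.57% and 0.0196% of all tested probe sets. G0s2, an inhibitor of the triglyceride lipase ATGL, had -0.98 in WT, and Plin5, a droplet coat protein of oxidative tissues, -1.61 in ERaKO. The 19 tested adipogenic transcription factor genes showed no common direction, with 9, 13 and 8 below 0 and medians of 0.06, -0.08 and 0.03. Cebpb, an early inducer of Cebpa and Pparg, had -1.09 ± 0.33 in WT (adjusted p = 0.28 unpaired and 0.036 under the replicate block). Foxo1, a target of insulin signalling, had 0.68 ± 0.23 in WT, and Ebf2, a factor of brown adipocytes, -1.13 ± 0.39 in ERaKO.

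Receptors and partners of the adipokines were mostly at or above 0, with 3, 3 and 4 of 11 tested genes below 0 in WT, ERaKO and ERbKO and medians of 0.29, 0.12 and 0.06. Of the adiponectin receptors, Adipor1 had 0.36 ± 0.17 in WT and Appl1, the adaptor of both, 0.45 ± 0.21 there. Adipor2 had -1.07 ± 0.56 in ERaKO (adjusted p = 0.76 unpaired and 0.041 under the replicate block). The 18 tested genes of other adipokines and adipocyte surface proteins were split, with 9, 10 and 7 below 0 and medians of 0.00, -0.06 and 0.04. Apln, the adipokine apelin, had -1.05 ± 0.36 in WT, and Irs1, the insulin receptor substrate, 0.58 ± 0.16 in WT (0.19, and 0.023 with the block) and 0.68 ± 0.21 in ERbKO (0.79). Car3, a carbonic anhydrase abundant in fat, had -0.97 ± 0.31 in ERaKO. In the 3 comparisons of E2 with placebo, no gene of the transcription factor, receptor or surface gene lists was called without the block. With the block, 1 gene of each of these 3 lists was called lower in ERaKO, as 1.57% of all tested probe sets were. In WT, Cebpb was called lower, as 0.725% of all tested probe sets were, and Irs1 higher, as 0.975% were.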

How the data were processed

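Whole aortic RNA of 22 mice was hybridised to 1 array each. The deposited log2 signals per probe set were made by the authors with GCRMA, and the authors' deposited table holds log2 differences of group means and unadjusted p-values from limma, both tools named per the submitters' processing notes without versions. A refit of the authors' model matched that table to within 4.98e-08 (log2) and 4.94e-08 (p-value), and the table was used for this check only.

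From the log2 signals, limma 3.58.1 (R 4.3.3) fitted 6 group means over all 22 arrays to probe sets over 4 on at least 3 arrays, without 64 Affymetrix controls, and gave moderated two-sided tests with Benjamini-Hochberg adjustment over 20410 probe sets per comparison. Intervals are 95% confidence intervals. A gene counts by its probe set with the highest mean. Annotation gave 34958 probe sets 1 gene symbol, 932 several and 9211 none, and only those with 1 were named. The procedure was tested on simulated data with independent noise on each array and changes added in WT E2 only. That simulation held no same-number pairs, so it did not check the block on paired mice. The knockout comparisons and the average over genotypes were not checked by it either. Nothing in the labels says that mice of a group came from separate litters, so p-values without the block measure the spread between these mice. For E2 against placebo under the replicate block within genotype, they measure the spread of the differences between these pairs.

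The labels number the mice within each group. Deviations from group means of E2 and placebo mice with the same number correlated with r of 0.25 to 0.66 in all 11 pairs of 1 genotype, each highest with its own number, so the numbers were taken to pair mice within genotype. This pairing comes from the data and not from the labels. Across genotypes, mice of the same number and treatment had r of -0.34 to 0.39 in 18 pairs, over 0.1 in 9. The numbers were not taken to pair mice there, and a block across genotypes was run as an alternative.

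The 10 genes and the lists of related genes and cell type markers were chosen with earlier results of these data known. From the pathway lists, genes called in a comparison were named, otherwise the 3 per list whose unadjusted p was lowest for E2 against placebo, and Ucp1, Cidea, Cox7a1, Myh11, Acta2, Pecam1, Dlk1, Esr1 and Esr2 always. Of the cell type marker lists, the other genes named were chosen after their values were seen. For likeness, the 3 genes with the highest Pearson r over arrays were named. Alternatives were other filters, normalisations, variance models, array weights, thresholds, array subsets, replicate blocks and leaving out each array, and, added later, each pair.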

Additional observations from a re-analysis of the deposited data

Results flagged for a closer look

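In the groups of 5 mice, 24 combinations of probe set and WT group were checked for a mouse far from the others, and chance alone flags about 1 in 20. Groups of 3 were not checked. The dimmest Fabp4 probe set was at 7.91 in WT placebo replicate 4, where the other 4 mice of the group had 3.43 to 3.82, and the gap was 0.913 of the group's range. Cebpa was at 5.95 in WT E2 replicate 3, where the other 4 mice had 7.99 to 8.67, and the gap was 0.751 of the range, against a critical value of 0.71.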

How the results depend on the processing

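Without a replicate block, 0 of 7 genes were called under every other filter, normalisation, variance model and array subset tried and at a threshold of 0.10, in all 11 comparisons (the subset of arrays was not run for the average over genotypes). The replicate block within genotype gave 1 called gene in WT, 2 in ERaKO and 4 averaged over genotypes. It changed no other count of the 7 genes, and a replicate block across genotypes gave 0. Leaving out 1 array, or 1 pair in the blocked fit, gave 0 to 1 called genes in WT, 0 to 4 in ERaKO and 0 to 5 averaged. With array weights the change of Cebpa was 0.35 in WT and 0.019 in ERbKO. Leaving out single arrays or pairs gave Cebpa -0.55 to 0.25 in WT (single arrays alone -0.54 to 0.25) and, in ERbKO, Cebpa -0.74 to 0.58, Adipoq -0.67 to 0.17, Cidec -0.94 to 0.033, Fabp4 -0.29 to 0.034, Pparg -0.83 to 0.44, Lpl -0.23 to 0.49, Ucp1 -0.44 to 0.28 and Cox8b -0.55 to 0.10. Without ERbKO pair 2 the blocked change of Cebpa in ERbKO was 0.068, and without ERbKO pair 3 that of Lpl was -0.023. Leaving out single arrays gave Cidec -0.0056 to 1.15 for ERaKO against WT with E2. The cause was not tested. Knockout groups hold 3 mice each, and Lep lies under the filter on all arrays.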
